A study of Mus musculus with 49 samples.

Results

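The genes examined here were Ccl27a, Ccl27b, Gm13306, Ccl21b, Fam205a1, Fam205a2, Fam205a3 and Fam205a4, 8 of the 45252 genes in the count table, which lie together on mouse chromosome 4. They were chosen by name because their levels varied between mice and because Ccl27b and Gm13306 also differed with the genotype, so these 2 properties are described without a test. All 8 passed the filter on low counts that left 18220 genes. Neocortical mRNA of 49 mice was sequenced, 1 library per mouse, and every mouse was a C57BL/6J x C3H/HeJ hybrid of mixed background. The 32 bigenic rNLS8 mice carry tTA under the neurofilament heavy chain (NEFH) promoter together with a tetO-driven human TDP-43 that lacks its nuclear localization signal, so that neurons make cytoplasmic TDP-43 once doxycycline is withdrawn. The 17 controls (ctrl-PBS, 10 females and 7 males) were monogenic littermates with the tetO-hTDP43∆NLS allele alone and received PBS. Of the bigenic mice, 10 received PBS (TDP-PBS, 4 females and 6 males), 10 received TDP-43 peptides 10 and 12 (TDP-10+12, 6 females and 4 males) and 12 received the phosphorylated C-terminal peptide 15 (TDP-15, 5 females and 7 males). Immunization used 40 µg of peptide coupled to ovalbumin, or PBS in its place, so the peptide groups also differed from TDP-PBS in the ovalbumin carrier. It began at 8 weeks of age and was given 5 times before and 1 time after doxycycline withdrawal at 25.5 weeks. Tissue was taken 3 weeks later, at 28.5 weeks. All mice had therefore been on doxycycline, and all were off it for the same time.

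Chemokines are small secreted proteins that guide leukocytes through G protein-coupled receptors. CCL27 is best known as a product of keratinocytes that attracts skin-homing T cells through CCR10, and Ccl27 transcripts are also made in the brain. CCL21 is made by lymphatic endothelium and lymph node stroma and attracts dendritic cells and T cells through CCR7. The mouse has several near-identical copies of the Ccl27 and Ccl21 genes in a duplicated region of chromosome 4, next to copies of the interleukin-11 receptor alpha chain. The Fam205a genes, named only for their similarity in sequence, are interspersed with them, and little is known of their function.

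In the RefSeq annotation of GRCm38.p6 the 8 genes spanned 1090 kb, chr4:41769467-42859820, in the order Ccl27a, Fam205a4, Gm13306, Ccl21b, Fam205a3, Fam205a2, Ccl27b and Fam205a1. All 8 are annotated as protein-coding, Ccl27a, Fam205a2 and Fam205a1 on the minus strand and the others on the plus strand. The span held 49 annotated genes in all. Ccl27a (chr4:41769467-41774225) overlaps Il11ra1, and Ccl27b (chr4:42650563-42656008) overlaps Il11ra2 and the pseudogene Ccl19-ps2. Fam205a4 overlaps Gm20878, Fam205a3 overlaps Gm21953, and Fam205a2 overlaps no annotated gene. Several of the copies could hardly be told apart by their transcripts. Each alignment below is for the pair of transcripts with the most identical bases. Fam205a2, Fam205a3 and Fam205a4 were identical over 3927 aligned bases of the GENCODE vM21 transcripts, and Fam205a1 differed from Fam205a2 at 27 of 3927 bases. Ccl27b and Gm13306 were identical over 418 aligned bases, whereas Ccl27a matched Ccl27b at 422 of 425 bases. Ccl21b was identical over 402 bases to Gm13304 and Gm10591. In consequence, 100% of the 100-base windows of Ccl21b, Fam205a2 and Fam205a3 also occurred in another gene, as did 97.9% of those of Ccl27b, 63.5% of Gm13306, 52.5% of Fam205a1 and 26.5% of Ccl27a. How the authors' counting placed reads that match several copies, and whether it used strand, was not given in the sources used here. Counts of single copies are therefore uncertain, and the sums over copies are given beside them.

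Near-identity was also seen between promoter windows of some copies. RefSeq promoter windows, 250 bases before to 50 bases after each start, were found for 7 of the 8 genes. The windows of Ccl27b and Gm13306 matched at 300 of 300 bases, so only that of Ccl27b is shown, beside that of Ccl27a, since these are the copies whose levels differed most in how they followed the genotype. In the pair below, capitals mark the substituted bases among the 238 that aligned, 234 of which were identical. The windows are chr4:42650313-42650612 (plus strand) for Ccl27b and chr4:41774127-41774426 (minus strand) for Ccl27a, both 5′ to 3′ in GRCm38.p6.
Ccl27b: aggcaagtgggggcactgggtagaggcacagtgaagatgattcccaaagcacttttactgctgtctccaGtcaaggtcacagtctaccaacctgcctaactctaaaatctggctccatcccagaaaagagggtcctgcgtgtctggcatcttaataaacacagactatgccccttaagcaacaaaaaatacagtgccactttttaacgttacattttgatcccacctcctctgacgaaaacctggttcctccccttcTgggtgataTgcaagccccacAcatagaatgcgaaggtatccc
Ccl27a: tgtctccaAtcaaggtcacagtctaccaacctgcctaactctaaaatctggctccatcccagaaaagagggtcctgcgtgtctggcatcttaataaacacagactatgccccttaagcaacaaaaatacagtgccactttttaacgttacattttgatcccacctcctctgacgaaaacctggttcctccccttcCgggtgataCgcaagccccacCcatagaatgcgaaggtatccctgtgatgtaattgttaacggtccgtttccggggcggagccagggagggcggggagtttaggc
Counted from 1 at the 5′ end of the Ccl27b window, the substitutions from Ccl27b to Ccl27a were G70A, T258C, T267C and A279C, and there was 1 gap of 1 base. The 5 motifs searched, on both strands, were TATAAA (the TATA box), CCAAT (the CCAAT box), GGGCGG (the GC box), TGACGTCA (the cyclic AMP response element) and TGACTCA (the AP-1 site), the last 2 of which share their first letters. The windows of Ccl27b and Gm13306 held none of these letters. That of Ccl27a held CCAAT in 1 place, across the base changed by G70A, and GGGCGG in 2 places, both past the stretch that aligned with Ccl27b. Among all 32851 RefSeq promoter windows of this length, 37.4% held the CCAAT box, 35.7% the GC box, 13.6% the TATA box, 5.20% the AP-1 site and 1.79% the cyclic AMP response element. A match is a description of these letters only.

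The Fam205a copies are shown because they carry the variation between mice. The window of Fam205a2 (chr4:42528188-42528487, minus strand) and that of Fam205a1 (chr4:42853839-42854138, minus strand) were identical at 284 of 286 aligned bases, with 1 gap of 14 bases, and capitals again mark the substituted bases, G130A and G199A from Fam205a2 to Fam205a1. Both windows belong to annotated starts inside the genes, downstream of the outermost one. The Fam205a2 window was the annotated one with the most bases identical to that of Fam205a1, so the choice favoured their identity.
Fam205a2: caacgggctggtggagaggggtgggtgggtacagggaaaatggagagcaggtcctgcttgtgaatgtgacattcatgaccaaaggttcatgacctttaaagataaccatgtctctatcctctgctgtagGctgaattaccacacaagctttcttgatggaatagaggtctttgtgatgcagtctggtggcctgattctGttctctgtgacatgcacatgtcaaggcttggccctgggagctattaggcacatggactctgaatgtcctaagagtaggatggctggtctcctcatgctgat
Fam205a1: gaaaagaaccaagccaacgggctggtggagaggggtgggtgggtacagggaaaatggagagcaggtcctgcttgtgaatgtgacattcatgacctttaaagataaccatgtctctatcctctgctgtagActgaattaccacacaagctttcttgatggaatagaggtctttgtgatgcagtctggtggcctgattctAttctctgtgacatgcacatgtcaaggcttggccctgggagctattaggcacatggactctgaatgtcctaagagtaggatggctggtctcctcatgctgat
Neither window held any of the 5 motifs.

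Library totals lay between 17775738 and 21033608 counts, and the floor of 3 counts corresponded to 0.139 to 0.165 CPM, the unit of all levels below (counts scaled to a common library size with edgeR's TMM factors). Such a floor allows for counting error and nothing else. A mean is given with ± its SD over the mice named. Xist and Ddx3y followed the labelled sex in 49 of 49 mice. Tardbp, the mouse gene of TDP-43, had 146 ± 9.27 CPM over the 17 ctrl-PBS mice and 121 ± 11.1 CPM over the 32 bigenic mice. The tissue expressed the neuronal markers Rbfox3, Slc17a7 and Gad1, which summed to 2057 to 2997 CPM. No sequencing batch is named in the labels.

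Fam205a3 reads were either nearly absent or plentiful. In ctrl-PBS its lowest, median and highest levels were 0, 21.1 and 29.2 CPM. They were 0.0494, 19.3 and 37.8 CPM in TDP-PBS, 0.100, 18.8 and 31.6 CPM in TDP-10+12, and 0.0491, 17.7 and 34.3 CPM in TDP-15. All 4 groups thus held mice at both ends, and their ranges overlapped throughout. By counts, 13 of the 49 mice had at most 10 reads, 33 had over 300, with 329 to 707 reads, and 3 had 178 to 227. The mice with at most 10 reads were 7 of 17 in ctrl-PBS, 2 of 10 in TDP-PBS, 1 of 10 in TDP-10+12 and 3 of 12 in TDP-15. This split was read from the counts and is no group of the study, so levels are given for it as ranges and medians, without a test.

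**Figure D1:**
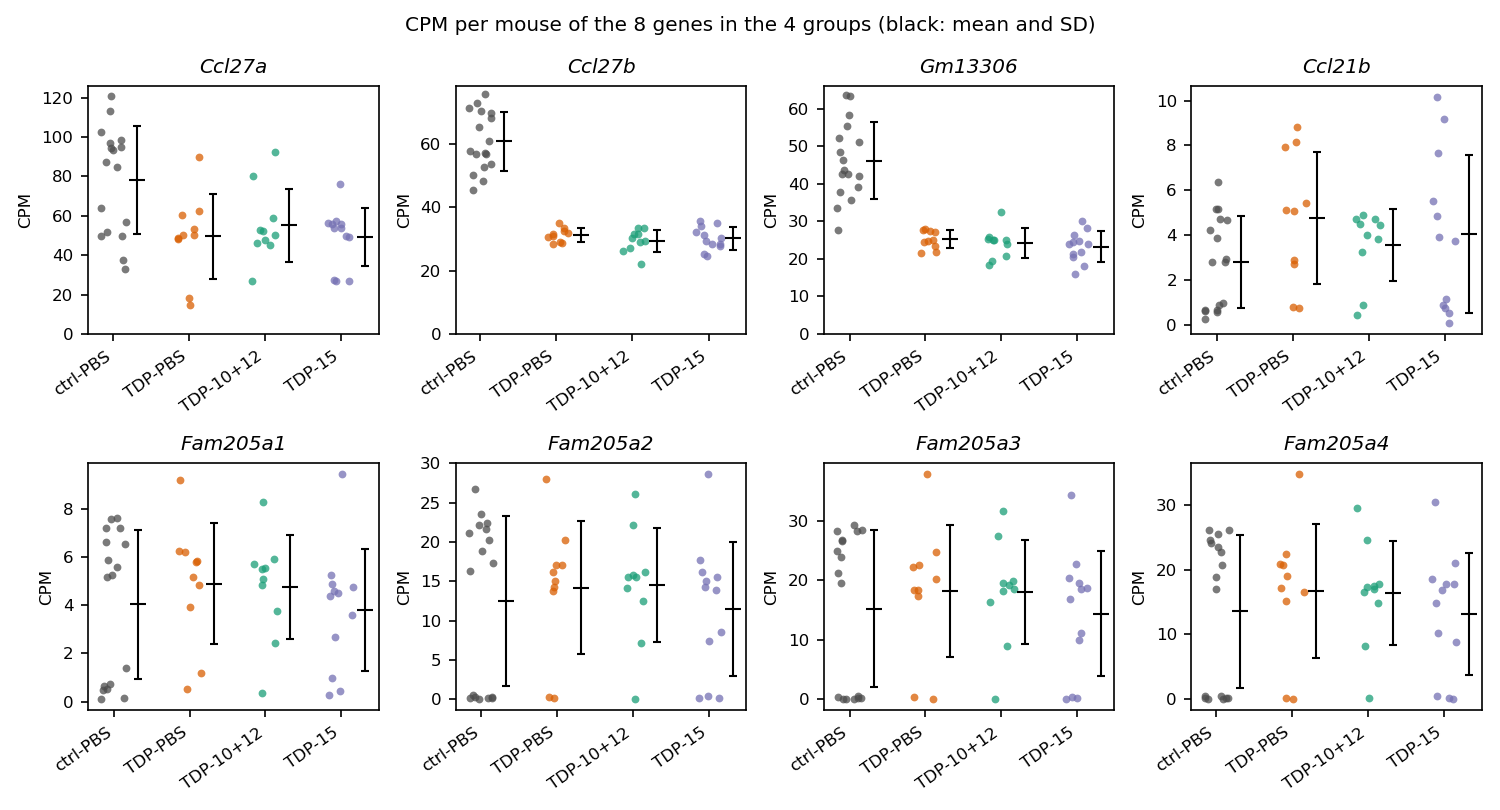
Level of each of the 8 genes in CPM (vertical axes, starting at or just below 0) in every mouse of the 4 groups (horizontal axes), with the group mean and SD in black. Ccl27b and Gm13306 are lower in the 3 bigenic groups, Ccl27a is spread in steps within every group, and the Fam205a genes and Ccl21b fall into mice near 0 and mice well above it in all 4 groups.

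The other Fam205a copies followed Fam205a3 mouse by mouse. In the 33 mice with over 300 Fam205a3 reads, the ratio of Fam205a4 to Fam205a3 counts lay between 0.865 and 0.956 (median 0.909) and that of Fam205a2 to Fam205a3 between 0.740 and 0.918 (median 0.799). Such narrow ratios stand beside identical transcripts, between which reads cannot be told apart. Summed, Fam205a2, Fam205a3 and Fam205a4 had 41.2 ± 35.7 CPM over the 17 ctrl-PBS mice and 45.2 ± 27.1 CPM over the 32 bigenic mice. Fam205a1, which has windows of its own, had a lowest, median and highest level of 0.104, 5.25 and 7.63 CPM in ctrl-PBS and of 0.283, 4.85 and 9.45 CPM in bigenic mice. In the 13 mice with at most 10 Fam205a3 reads it had 2 to 27 reads, and in the 33 mice with over 300 it had 80 to 177.

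Ccl21b, a copy of the CCR7 ligand, varied in the same way. Its lowest, median and highest levels were 0.260, 2.81 and 6.38 CPM in ctrl-PBS, 0.732, 5.08 and 8.83 CPM in TDP-PBS, 0.449, 4.22 and 4.88 CPM in TDP-10+12, and 0.0976, 3.84 and 10.1 CPM in TDP-15. It had 5 to 23 reads in the 13 mice with at most 10 Fam205a3 reads and 55 to 190 in the 33 mice with over 300. Its identical copies Gm13304 and Gm10591 had at most 4 reads in each of those 13 mice, against 124 to 382 and 180 to 508 reads in the 33 mice. In 3 mice Ccl21b and Fam205a3 went apart. Mouse 266 of TDP-10+12 and mice 261 and 54 of TDP-15 had 178, 204 and 227 Fam205a3 reads, between the other mice, but only 9, 18 and 2 Ccl21b reads. In these 3 mice Gm13304 had 1 to 2 reads and Gm10591 1 to 3, whereas Fam205a1 had 49 to 74 reads. The counts below were repeated without these 3 mice, a choice made after seeing the data, and no count of the 8 genes called changed.

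Ccl27a also varied with the Fam205a genes, but never fell to 0. Its lowest, median and highest levels were 33.1, 87.2 and 121 CPM in ctrl-PBS, 14.4, 50.2 and 89.8 CPM in TDP-PBS, 26.9, 51.2 and 92.2 CPM in TDP-10+12, and 27.1, 53.9 and 76.0 CPM in TDP-15. The groups overlapped widely: 6 of 32 bigenic mice lay below every ctrl-PBS mouse. In ctrl-PBS, the 7 mice with at most 10 Fam205a3 reads had 33.1 to 63.8 CPM of Ccl27a and the other 10 had 84.6 to 121 CPM. In bigenic mice the 6 with at most 10 reads had 14.4 to 27.4 CPM, the 23 with over 300 had 45.2 to 92.2 CPM, and the 3 mice between had 47.8 to 57.3 CPM. Within each genotype the Ccl27a ranges of the mice with the fewest and the most Fam205a3 reads therefore did not overlap.

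Ccl27b showed the opposite arrangement, with little spread within a group and a separation between genotypes. Its lowest, median and highest levels were 45.5, 57.7 and 75.6 CPM in ctrl-PBS, 28.4, 31.2 and 34.9 CPM in TDP-PBS, 22.2, 29.7 and 33.6 CPM in TDP-10+12, and 24.5, 29.8 and 35.7 CPM in TDP-15. All 32 bigenic mice lay below all 17 ctrl-PBS mice, an arrangement seen in 1.64% of the 18220 genes tested, beside 1.16% with all bigenic mice above. The log2 fold change of the mean of the bigenic groups against ctrl-PBS was −1.01 (standard error 0.05), which is 50.2% lower. In bulk tissue, fewer cells that make a transcript and less of it per cell cannot be told apart.

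Gm13306, annotated as a protein-coding gene with the Ccl27b sequence, also separated most mice by genotype. It had a lowest, median and highest level of 27.7, 43.6 and 63.7 CPM in ctrl-PBS, 21.7, 25.0 and 28.1 CPM in TDP-PBS, 18.5, 25.0 and 32.4 CPM in TDP-10+12, and 16.03, 23.9 and 30.2 CPM in TDP-15. Of the 32 bigenic mice, 28 lay below every ctrl-PBS mouse, and 1 ctrl-PBS mouse lay among the bigenic mice. The log2 fold change was −0.93 (standard error 0.07), or 47.5% lower. Of the Ccl27b windows 97.9% also occur in Gm13306, and of the Gm13306 windows 33.6% occur in Ccl27b and 41.9% in Ccl27a, so the 3 genes are not independent of each other. Summed over Ccl27a, Ccl27b and Gm13306, the mean level was 185 ± 43.5 CPM over the 17 ctrl-PBS mice, 106 ± 24.4 CPM over the 10 TDP-PBS mice, 109 ± 22.7 CPM over the 10 TDP-10+12 mice and 103 ± 18.3 CPM over the 12 TDP-15 mice. With the sum, 14 of 32 bigenic mice lay below every ctrl-PBS mouse.

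In each genotype comparison the calls among the 8 genes were decreases, with 0 increases, and they stand here as a description because this contrast helped choose the genes. Against ctrl-PBS, edgeR's quasi-likelihood test called 3 of 8 genes lower in TDP-PBS (Ccl27a, Ccl27b and Gm13306), where 21.6% of all genes tested were called lower and 21.9% higher (43.5% in all). It called 2 lower in TDP-10+12 (Ccl27b and Gm13306), where 20% of all genes were called lower and 20.8% higher (40.8% in all), and 3 lower in TDP-15 (Ccl27a, Ccl27b and Gm13306), where 23.2% were called lower and 23.6% higher (46.9% in all). The 3 comparisons share the 17 ctrl-PBS mice. The median log2 fold change of the 8 genes was 0.22, 0.22 and −0.11 in TDP-PBS, TDP-10+12 and TDP-15, beside 0.00 over all genes tested in each. For Ccl21b the log2 fold changes were 0.77 (standard error 0.45), 0.35 (0.46) and 0.53 (0.43), and for Fam205a3 0.26 (0.63), 0.24 (0.63) and −0.08 (0.61). Their standard errors were several times that of Ccl27b, which was 0.07 in each comparison.

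The balance of the 2 patterns differed strongly from gene to gene. The within-group SD of log2 CPM was 2.92 for Fam205a3, 2.87 for Fam205a4, 2.72 for Fam205a2, 1.54 for Fam205a1 and 1.42 for Ccl21b, beside a median of 0.21 over all genes tested. These 5 genes were among the 200 most variable of the 18220, Fam205a3 at rank 14 and Ccl21b at rank 92. Ccl27a had an SD of 0.60 (rank 1849), Gm13306 one of 0.26 (rank 7259) and Ccl27b one of 0.18 (rank 10377). The genotype accounted for 87.7% of the sum of squares of log2 CPM in Ccl27b, 74.2% in Gm13306 and 20.5% in Ccl27a. It accounted for 3.30% to 4.03% in Ccl21b and the Fam205a genes, and the median over all genes tested was 12.0%. These shares pool mice near 0 with the others. Among mice with over 300 Fam205a3 reads, the medians in ctrl-PBS and bigenic mice were 26.7 and 19.5 CPM for Fam205a3. They were 21.4 and 15.8 CPM for Fam205a2, 23.9 and 17.8 CPM for Fam205a4, and 6.58 and 5.27 CPM for Fam205a1. For Ccl21b they were 4.47 and 4.83 CPM. The ranges overlapped for each gene, and these differences were not tested.

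To separate the genotype difference from the variation shared along the cluster, a score was formed for each mouse as the mean of the standardised log2 CPM of the 4 Fam205a genes, and was entered beside the group. The mean score was −0.26 ± 1.19 over the ctrl-PBS mice and 0.14 ± 0.86 over the bigenic mice, with overlapping ranges. Each unit of the score went with a log2 change of 1.21 (standard error 0.13) in Ccl21b, 0.52 (0.04) in Ccl27a, 0.14 (0.03) in Gm13306 and 0.07 (0.02) in Ccl27b. The genotype difference of Ccl27a, bigenic against ctrl-PBS, was −0.61 (standard error 0.16) on the log2 scale without the score and −0.82 (0.08) with it, that is 34.5% and 43.4% lower. That of Ccl27b was −1.01 (0.05) and −1.03 (0.05), and that of Gm13306 −0.93 (0.07) and −0.98 (0.06). The difference of Ccl21b, 0.55 (0.35) without the score, was 0.27 (0.22) with it. In TDP-10+12, where the difference of Ccl27a without the score did not pass the threshold, its log2 fold change was −0.50 (0.21) without and −0.75 (0.11) with the score. The score was built from genes of the same cluster that share no 100-base window with the Ccl27 genes. Whether the Fam205a genes themselves differ with the genotype was not tested, so the score may carry part of a genotype difference.

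**Figure D2:**
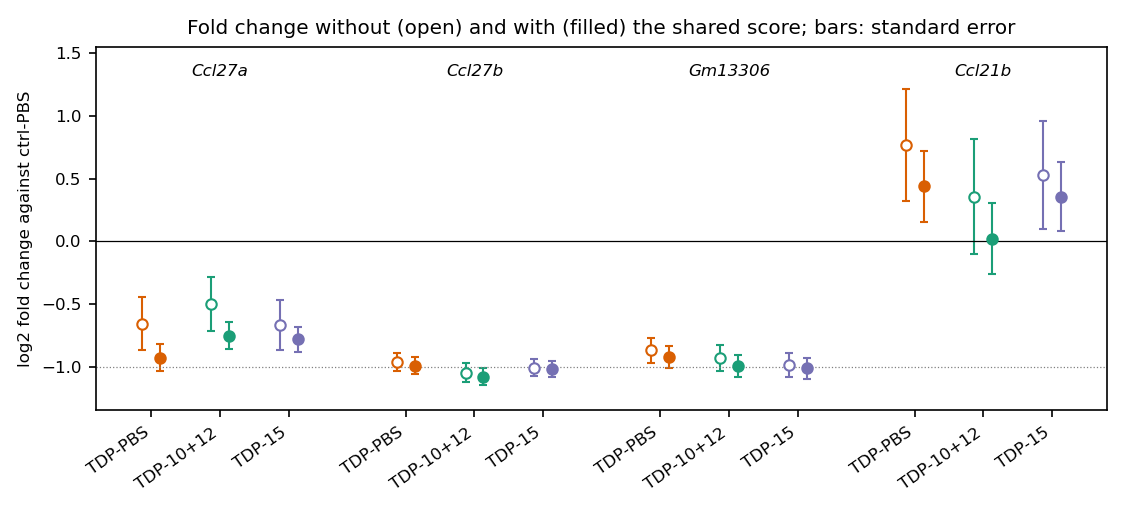
Log2 fold change against ctrl-PBS (vertical axis) of Ccl27a, Ccl27b, Gm13306 and Ccl21b in the 3 bigenic groups (horizontal axis), without (open points) and with (filled points) the shared Fam205a score in the model, with standard errors as bars. With the score the Ccl27a values move towards the dotted line at −1 and their bars shorten, those of Ccl27b and Gm13306 hardly move, and those of Ccl21b move towards 0.

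The same separation was seen on the linear scale. Straight lines of Ccl27a on Fam205a3, fitted within each genotype, met 0 Fam205a3 at 48.3 CPM (standard error 3.37) in ctrl-PBS and at 24.2 CPM (2.67) in bigenic mice. Their slopes were 1.97 (0.17) and 1.62 (0.14) CPM of Ccl27a per CPM of Fam205a3, and the lines accounted for 90.0% and 82.1% of the variance within the genotype. For Ccl27b the lines met 0 at 54.4 (2.92) and 28.9 (1.07) CPM, with slopes of 0.42 (0.15) and 0.08 (0.06), and accounted for 35.005% and 6.63% of the variance. For Gm13306 they met 0 at 37.3 (2.65) and 21.3 (1.10) CPM, with slopes of 0.58 (0.13) and 0.17 (0.06), and accounted for 55.8% and 23.4% of the variance, more than for Ccl27b and less than for Ccl27a. The Ccl27a level thus held a part that followed Fam205a3 in both genotypes and a remainder that was lower in bigenic mice, whereas the former part was smaller in Gm13306 and smallest of the 3 in Ccl27b. For Ccl21b the lines met 0 at 0.810 (0.435) and 0.415 (0.612) CPM, both within 2 standard errors of 0.

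**Figure D3:**
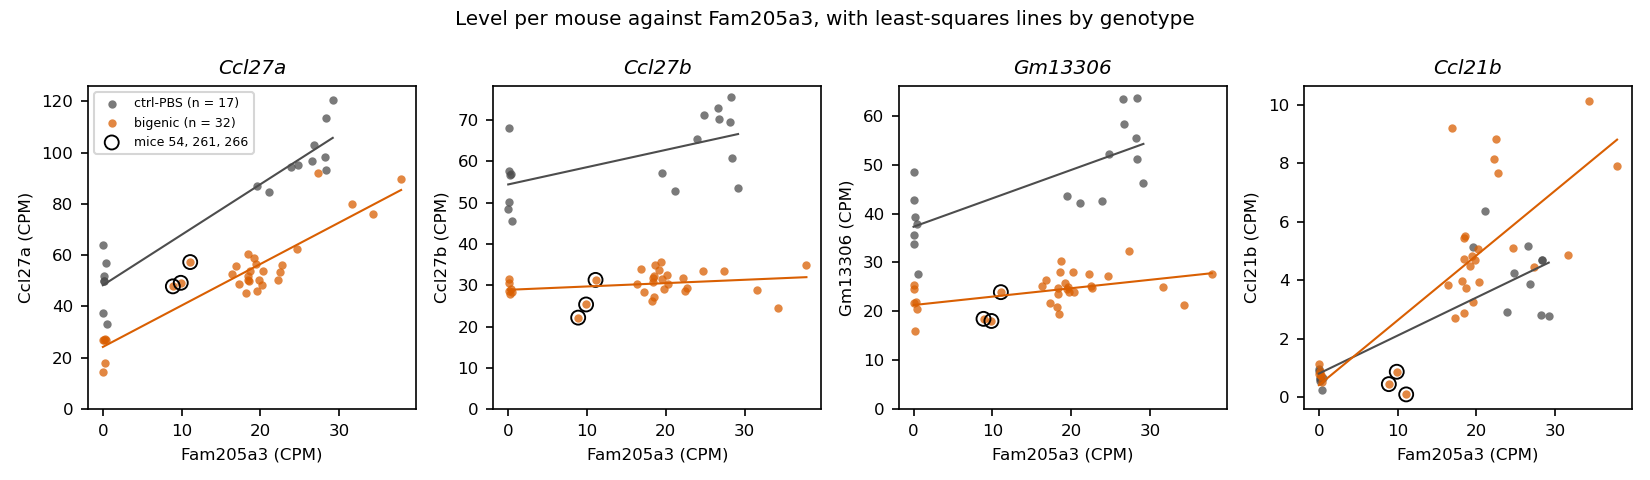
Level of Ccl27a, Ccl27b, Gm13306 and Ccl21b in CPM (vertical axes) against that of Fam205a3 in CPM (horizontal axes) for each mouse, with ctrl-PBS in grey (n = 17), bigenic mice in orange (n = 32) and least-squares lines by genotype. The circled mice 54, 261 and 266 have 8.88 to 11.1 CPM of Fam205a3 and lie near 0 for Ccl21b but above the bigenic line for Ccl27a.

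The antigen and the sex played no part in choosing the genes, so these comparisons are tests. Peptide immunization was not followed by a detectable difference in any of the 8 genes. With edgeR's quasi-likelihood test, 0 of 8 passed an adjusted p-value under 0.05 in TDP-10+12 against TDP-PBS, in TDP-15 against TDP-PBS or in TDP-10+12 against TDP-15, and 0% of all genes tested did so in each. The unadjusted p-value fell under 0.05 for 953, 552 and 1244 genes of the whole table and for 0 of these 8, among which its smallest values were 0.302, 0.293 and 0.462. DESeq2 and limma-voom likewise called 0 of the 8. Ccl27b was measured most precisely. Its log2 fold change was −0.08 (95% interval −0.24 to 0.07, adjusted p = 0.975) in TDP-10+12 and −0.04 (−0.19 to 0.11, adjusted p = 0.9996) in TDP-15, each against TDP-PBS, and −0.04 (−0.19 to 0.11, adjusted p = 0.966) between the 2 peptide groups. For Gm13306 the values were −0.06 (−0.28 to 0.16), −0.12 (−0.33 to 0.10) and 0.05 (−0.16 to 0.27), and for Ccl27a 0.16 (−0.31 to 0.62), −0.01 (−0.46 to 0.43) and 0.17 (−0.28 to 0.61). The intervals were far wider for genes that fall near 0 in some mice, such as Ccl21b with −0.41 (−1.41 to 0.58) and Fam205a3 with −0.02 (−1.41 to 1.37) in TDP-10+12 against TDP-PBS. For these genes a change of that size could not have been detected.

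No difference between females and males passed the test in the 8 genes either. With the groups in the model, 0 of 8 were called, where 0.0933% of all genes tested were (17 genes, 0.0659% higher in females and 0.0274% lower). All 8 estimates were lower in females, with log2 fold changes from −0.61 in Fam205a2 (95% interval −1.49 to 0.26) to −0.08 in Ccl27b (−0.18 to 0.02), and the smallest unadjusted p-value was 0.0895 for Gm13306 (adjusted p = 0.999). The 8 estimates are not independent, because the genes share sequence and varied together between mice, so their common direction counts for little. No dependence of the genotype difference on sex passed the test, with 0 of 8 called, 0% of all genes tested and 661 genes of the table at an unadjusted p-value under 0.05. For Ccl27b the interaction was 0.11 on the log2 scale (95% interval −0.09 to 0.32, adjusted p = 0.9995).

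Across mice, with group means removed, log2 CPM of the 8 genes rose and fell together, which is described without a test because this variation chose them. Over the 28 pairs the median Pearson's r was 0.76 (0.37 to 0.9997) in 49 mice. The mice form separate clusters by Fam205a3, so that a pooled r mainly reflects those clusters, and in the 33 mice with over 300 Fam205a3 reads the median was 0.32 (−0.14 to 0.99). Ccl27a kept r = 0.83 with Fam205a3 in those 33 mice (Spearman's rho 0.71), against 0.89 (rho 0.87) in all 49. Ccl21b had r = 0.76 in 49 mice and 0.34 in the 33. Ccl27b had 0.37 and 0.02, while its r with Gm13306 was 0.86 and 0.79.

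Along chromosome 4 the correlation with Fam205a3 was high for most genes within the cluster and low for most genes outside it. Of the 27 other genes tested that lay within the span or overlapped its ends, 21 had an absolute r over 0.5, and the median absolute r was 0.85. Of the 57 genes from there to 1 Mb away, 1 did, with a median of 0.17. From 1 to 2 Mb 1 of 19 genes did, from 2 to 5 Mb 2 of 40 (largest absolute r 0.63), from 5 to 10 Mb 0 of 52, from 10 to 20 Mb 3 of 72 (largest 0.64), from 20 to 50 Mb 1 of 150 and beyond 50 Mb 1 of 753. The medians of these bins lay between 0.12 and 0.20. For the 17015 genes tested on other chromosomes the median was 0.12, the largest absolute r was 0.58, and 15 genes exceeded 0.5. RefSeq lists a further 27 tested genes on chromosome 4 with a start under 3 Mb, which were taken as having no usable position. Of these, 17 had r over 0.5, among them LOC100862324 (r = 0.98), 4933409K07Rik (0.98), LOC100041536 (0.98) and Ccl21c (0.88).

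**Figure D4:**
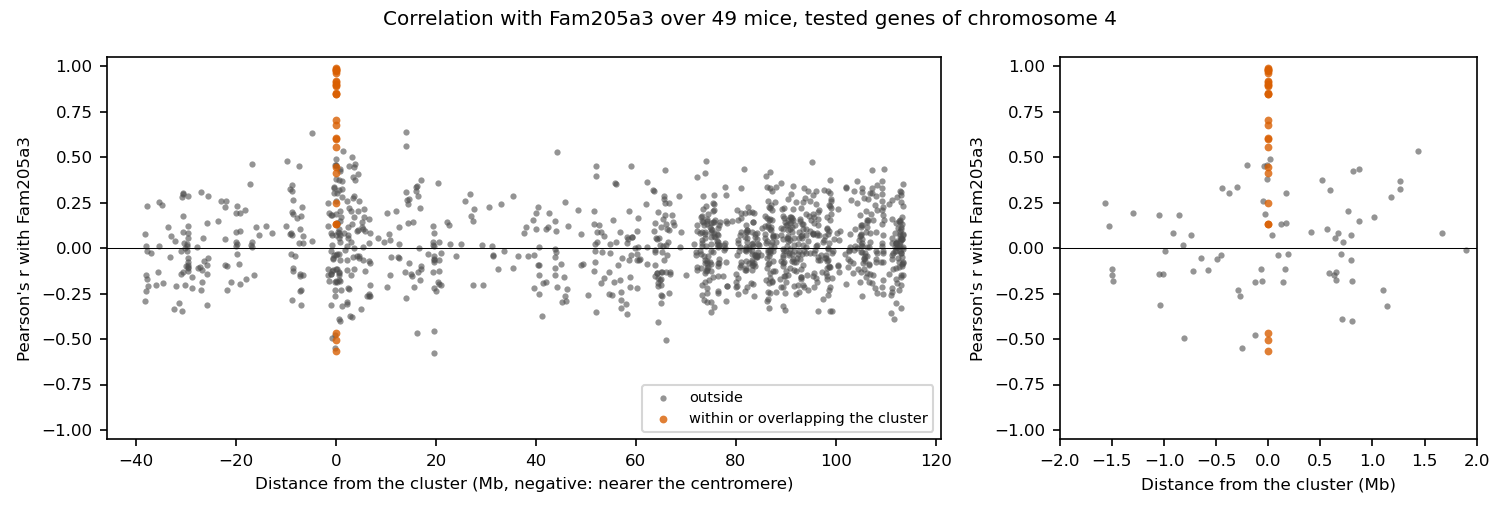
Pearson's r of log2 CPM with Fam205a3 over 49 mice, group means removed (vertical axes), for the tested genes of chromosome 4 other than the 8, against their distance from the cluster in Mb (horizontal axes), over the whole chromosome on the left and within 2 Mb on the right. Genes within or overlapping the cluster (orange, plotted at 0) reach 0.99 and most exceed 0.5, and those outside (grey) scatter around 0.

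The genes most like each of the 8, by the absolute r over the 49 mice, lay within the cluster or are listed on chromosome 4 without a usable position, with 1 exception. For Fam205a3 and Fam205a4 these were the pseudogenes Gm46892 and LOC108169009 within the span and LOC100862324 of unknown place, with r of 0.98 to 0.99 (0.82 to 0.87 in the 33 mice). They were the same 3 for Fam205a2. For Fam205a1 they were LOC100041516, LOC100862043 and LOC100862324, with r of 0.94 to 0.95. For Ccl27a they were LOC108169009, LOC100041536 and Gm46892, each with r = 0.91. For Ccl21b they were Ccl21d, LOC100041504 and Gm13304, with r of 0.93. For Ccl27b and Gm13306 they were LOC100861978 and Gm2506, with r of 0.64 to 0.71, and Cacng5, a gene of another chromosome, with r of −0.66 and −0.62.

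The neighbours were not chosen by their values, and among them the genotype difference could be tested. The bigenic mice include both peptide groups, whereas ctrl-PBS mice received PBS, so this contrast also mixes in immunization. Of the 25 other genes tested that lay fully within the span, 2 rose and 4 fell in bigenic mice against ctrl-PBS, and 19 had r over 0.5 with Fam205a3. Of the 59 outside it within 1 Mb, 14 rose and 19 fell. The background for this contrast was 27.1% of all genes tested higher and 27% lower, against 4 of 25 and 19 of 59 genes lower here. Within the span the decreases of Gm20878, Gm21953 and Gm21586 had the largest log2 fold changes. Gm20878 had 6.35 ± 1.98 CPM over the 17 ctrl-PBS mice and 2.93 ± 0.855 CPM over the 32 bigenic mice (log2 fold change −1.11, standard error 0.12, adjusted p = 2.37e-11). Gm21953 had 14.8 ± 3.60 and 7.33 ± 1.74 CPM (−1.02, standard error 0.10, adjusted p = 2.86e-13), and Gm21586 4.35 ± 1.25 and 2.10 ± 0.520 CPM (−1.06, standard error 0.11, adjusted p = 7.52e-12). Each had a log2 fold change near that of Ccl27b. All 3 share 100-base windows with Ccl27a and with Gm13306, Gm20878 the most, with 15.8% of the Ccl27a windows. Whether reads of the Ccl27 genes were counted on them is not known. Their adjusted p-values are therefore no separate support for the decreases of the Ccl27 genes. Their r with Fam205a3 was negative, −0.51 for Gm20878, −0.57 for Gm21953 and −0.46 for Gm21586, although Gm20878 overlaps Fam205a4 and Gm21953 overlaps Fam205a3. The fourth gene that fell was Il11ra2, given with the interleukin-11 genes.

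LOC100861978 and Gm2506, listed on chromosome 4 without a usable position, also fell, with log2 fold changes near that of Ccl27b. They were reached as the genes most like Ccl27b and Gm13306. Whether they share sequence or reads with the Ccl27 genes is not known. Their adjusted p-values are therefore no separate support for the decreases of those genes. LOC100861978 had 36.3 ± 6.83 CPM over the 17 ctrl-PBS mice and 17.8 ± 2.12 CPM over the 32 bigenic mice (log2 fold change −1.03, standard error 0.06, adjusted p = 7.11e-20). Gm2506 had 37.3 ± 6.09 and 19.0 ± 2.42 CPM (−0.97, standard error 0.06, adjusted p = 1.26e-19), and its lowest ctrl-PBS mouse, at 23.9 CPM, lay above the highest bigenic mouse, at 22.6 CPM. Their r with Fam205a3 was 0.22 and −0.03. Of the 27 genes of this kind, 4 fell and 1 rose.

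The 2 neighbours within the span that rose were low. Ccl19-ps1, a pseudogene of the other CCR7 ligand, had 0.574 ± 0.440 CPM over the 17 ctrl-PBS mice and 1.11 ± 0.675 CPM over the 32 bigenic mice (log2 fold change 0.93, standard error 0.32, adjusted p = 0.0134), a call not made by limma-voom (adjusted p = 0.0572). Gm2457 had 0.449 ± 0.179 and 0.814 ± 0.393 CPM (0.85, standard error 0.23, adjusted p = 0.00139). Both had r of 0.60 to 0.70 with Fam205a3. With the shared score in the model their log2 fold changes were 0.64 (standard error 0.26) and 0.62 (0.20).

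**Figure D5:**
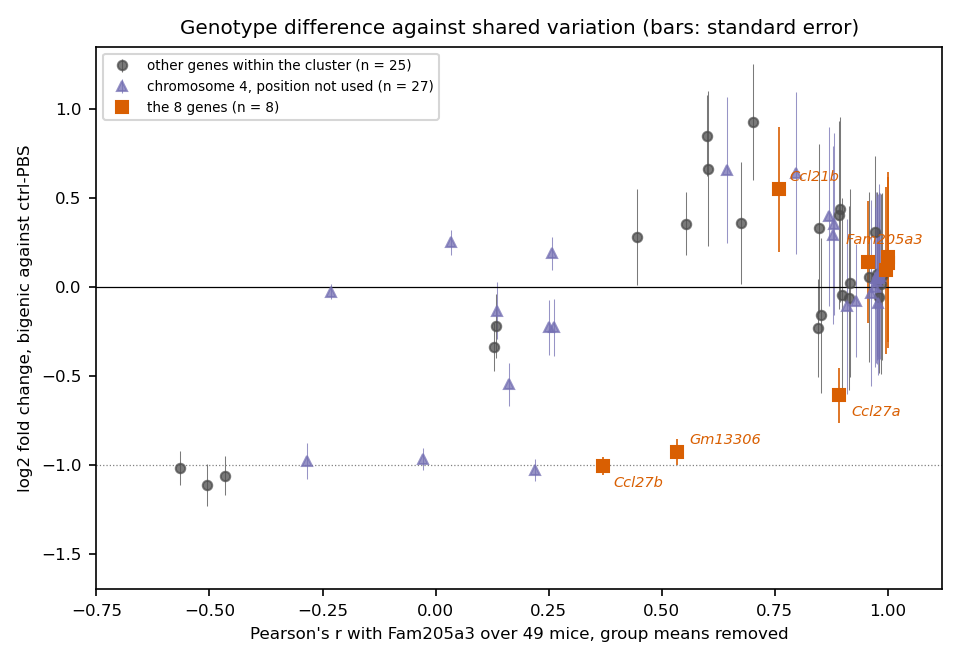
Log2 fold change of bigenic against ctrl-PBS mice with its standard error (vertical axis) against Pearson's r with Fam205a3 over 49 mice (horizontal axis), for the 8 genes (orange), the 25 other tested genes within the cluster (grey) and the 27 genes listed on chromosome 4 without a usable position (purple). Genes with r near 1 lie around a log2 fold change of 0 with wide bars, and the genes close to the dotted line at −1, Ccl27b and Gm13306 among them, have r below 0.6. Ccl27a, with r = 0.89, lies between them at −0.61 (standard error 0.16).

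Genes of the receptors and partners of these ligands were mostly low in the neocortex. Of 14 listed genes of the CCL27, CCL21 and interleukin-11 axes, 7 passed the filter, and in bigenic mice 1 rose and 3 fell, beside the 54.2% of all genes tested that were called in either direction. Ccr10, the receptor of CCL27, had at most 8 reads in any mouse, and Ccr7, the receptor of CCL21, at most 14. Neither was tested, and neither were Ccr3, Ccl19, Cxcr3, Il11 and the scavenging receptor Ackr4. Ccl28, the other CCR10 ligand, had 1.44 ± 0.840 CPM over the 17 ctrl-PBS mice and 1.77 ± 1.33 CPM over the 32 bigenic mice (log2 fold change 0.27, standard error 0.32, adjusted p = 0.497). Ackr2, which takes up inflammatory chemokines, fell from 3.92 ± 0.795 to 2.98 ± 0.966 CPM (−0.39, standard error 0.13, adjusted p = 0.00970). By edgeR against ctrl-PBS it was not called in TDP-PBS (−0.26, adjusted p = 0.240). It was called in TDP-10+12 (−0.49, adjusted p = 0.0251) and TDP-15 (−0.43, adjusted p = 0.0300). Il11ra1, which overlaps Ccl27a, fell from 14.7 ± 1.65 to 12.3 ± 1.30 CPM (−0.26, standard error 0.05, adjusted p = 6.59e-06). Il11ra2, which overlaps Ccl27b, had 2.33 ± 0.926 and 1.86 ± 0.563 CPM (−0.34, standard error 0.13, adjusted p = 0.0311), a call lost with limma-voom (adjusted p = 0.0758), with no filter on low counts (0.0588) and without mice 54, 261 and 266 (0.0631). By edgeR it was not called in TDP-PBS, TDP-10+12 or TDP-15 taken singly against ctrl-PBS (adjusted p = 0.0809, 0.0584 and 0.353). Il6st, the shared signalling chain gp130, rose from 55.1 ± 4.07 to 66.5 ± 7.19 CPM (0.27, standard error 0.04, adjusted p = 2.19e-07). Il11ra1 and Il6st were called in each bigenic group taken singly. Both Il11ra genes had smaller log2 fold changes than the Ccl27 gene each overlaps, a difference that was not tested, and whether reads of one were counted on the other is not known.

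Ccl21a and Ccl21c, further copies of the CCR7 ligand, were not called. Ccl21a, which matches Ccl21b at 400 of 402 bases, had 0.234 ± 0.219 and 0.385 ± 0.366 CPM in ctrl-PBS and bigenic mice (log2 fold change 0.67, standard error 0.44, adjusted p = 0.198). Ccl21c had 2.92 ± 2.60 and 3.59 ± 2.56 CPM (0.29, standard error 0.50, adjusted p = 0.645). Ccl21c was at 0 to 6 reads in the 13 mice with at most 10 Fam205a3 reads and at 0 to 1 in mice 54, 261 and 266, as Ccl21b was near 0 there.

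Markers of other cell types that could bear these transcripts were also read. The keratinocyte markers Krt5, Krt14 and Krt10 summed to 1.14 to 4.22 CPM in ctrl-PBS and 0.824 to 2.61 CPM in bigenic mice, and the 1 of 3 that could be tested fell. The lymphatic endothelial markers Lyve1, Prox1 and Flt4 summed to 19.8 to 27.1 and 22.2 to 31.5 CPM, and 2 of 3 rose. T cell markers summed to 1.90 to 35.5 and 3.85 to 14.8 CPM, and the 1 of 4 that could be tested fell. Those of testis germ cells did not exceed 0.200 CPM. Astrocyte markers summed to 468 to 643 CPM in ctrl-PBS and 580 to 1540 CPM in bigenic mice, with 1 of 3 higher and 1 lower, and those of the choroid plexus to 10.5 to 361 and 9.33 to 1671 CPM, with 3 of 3 higher. Olfactory bulb markers (Omp, Eomes and Scgn) summed to 0.157 to 37.9 CPM in ctrl-PBS and 0.139 to 19.2 CPM in bigenic mice, and 2 of 3 fell. Microglial markers summed to 70.1 to 86.7 and 66.7 to 109.8 CPM, with 1 of 3 higher and 1 lower. Those of oligodendrocytes (2777 to 5035 and 2307 to 4703 CPM, 3 genes) and endothelium (31.5 to 68.7 and 33.0 to 70.4 CPM, 2 genes) had 0 called in either direction. Of the 3 neuronal markers 2 fell. The calls for neuronal, keratinocyte, T cell and olfactory bulb markers were thus all decreases, the direction in which the Ccl27 genes differed. Those for lymphatic endothelium and choroid plexus were all increases. Of all genes tested, 27% were called lower and 27.1% higher. The part of these cell types in the levels of the Ccl27 genes was not tested.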

How the data were processed

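Neocortical RNA of 49 mice was read by the authors in pairs of 100 bp and aligned to GRCm38.p6 (mm10 in the submitters' processing notes). These notes name HISAT, HISAT2, Bowtie, Bowtie2 and RSEM without roles or versions. Annotation, strand setting and the treatment of reads matching several genes were not given in the sources used here. The authors deposited whole-number counts per gene and mouse, without normalization, and all 49 columns were used.

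Groups, sexes and animal numbers were taken from the labels. Nothing in them ties mice to cages or batches. All 49 mice entered 1 fit in edgeR 4.0.16 (R 4.3.3): filterByExpr with the groups, a minimum count of 10 and a minimum total of 15, then TMM factors, glmQLFit and glmQLFTest. Tests were two-sided, with Benjamini-Hochberg adjustment over 18220 genes and a threshold of 0.05. Standard errors were derived from the F statistic. Correlations, SDs and the shared score used log2 CPM with a prior count of 2. Alternatives were RLE scaling, no filter, a stricter filter (10 counts or more in all mice), DESeq2 1.42.0, limma-voom (limma 3.58.1), sex as a covariate, fits of only the 2 groups compared, prior counts of 0.5 and 5, and other choices of the shared score. Leaving out mice 54, 261 and 266 and entering the score in the counts of calls were added after seeing the data. The steps were tested on simulated counts.

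Positions and promoters are from RefSeq (GRCm38.p6), in which all 45252 symbols were found, and transcripts and strands from GENCODE vM21. RefSeq positions of chromosome 4 under 3 Mb were not used. Sequences were compared with Biopython 1.88, and the plots made in Python 3.11.15 with matplotlib 3.10.9.

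The 8 genes, the gene lists and the comparisons were chosen with earlier results of these data known. Named are the 8 genes, the tested genes of a list of 14 on the chemokine and interleukin-11 axes, neighbours within the span, the 5 called neighbours within 1 Mb with the largest log2 fold change, and the 3 genes most like each of the 8. Gm10591 and Gm13304 were also read as copies of Ccl21b, and 4933409K07Rik was named after its value had been seen. A further neuronal marker that had been listed was left out and is not reported here.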

Additional observations from a re-analysis of the deposited data

Results flagged for a closer look

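Among the 16 sets of 1 gene in 1 group of 10 mice, 1 held a mouse far from the others. Gm13306 in TDP-10+12 was 32.4 CPM in mouse 51, and the gap to the next mouse was 0.468 of the range of the group, just above Dixon's critical value for 10 values. Chance flags about 1 in 20 such sets.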

How the results depend on the processing

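Over all alternatives, the counts of the 8 genes called, the counts of neighbours (34 to 39) and axis genes (3 to 4) called, the number of the 8 among the 200 most variable genes (5) and the median correlation (0.73 to 0.79) stayed within 1.5 times or within the spread of the values reported. The count in TDP-10+12 against ctrl-PBS was 2, and 3 in the fit of the 2 groups alone and with the shared score. In TDP-15 it was 3, and 4 with the score. The score was built from the 4 Fam205a genes, which are among the 8 counted. For these genes the counts with the score are circular and say nothing about the genotype. The genotype difference with the score lay between −1.04 and −0.92 for Ccl27b and between −0.98 and −0.75 for Gm13306 on the log2 scale, nearest to 0 for both with Ccl27a in place of the score. Among single genes, 474 values kept direction and side of the threshold, 4 lost the call, those of Ccl19-ps1 and Il11ra2 given above, and 23 changed sign with no call before or after. With limma-voom, the log2 fold change of bigenic against ctrl-PBS mice became 0.258 for Gm10601, 0.864 for Gm29801, 0.623 for Gm29804, 0.849 for Gm46857, 0.0209 for Gm12394 and 1.13 for LOC100862043. Under the same tool it became 0.487 for Fam205a3 and 0.517 for Fam205a4 in TDP-10+12 against TDP-PBS, 0.0827 for Ccl27a in TDP-15 against TDP-PBS and 0.432 for Ccl21b in TDP-10+12 against TDP-15. Without mice 54, 261 and 266 it became 0.0810 for Gm29801, 0.101 for Gm29804, 0.00323 for Gm46857, −0.0360 for Cacng5 and 0.0533 for LOC100862043 between genotypes, and 0.0308, 0.0602 and 0.0481 for Fam205a1, Fam205a3 and Fam205a4 in TDP-10+12 against TDP-PBS. With sex as a covariate the last 3 became 0.0425, 0.0622 and 0.0490, and LOC100862043 0.00212, and with DESeq2 LOC100862043 became 0.00405. The cause of these changes was not tested. Depth limits Ccl21b and the Fam205a genes in mice near the floor of 3 counts. No paired analysis was possible because each mouse is a separate animal and the animal numbers are not shared between groups.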
